A study of Mus musculus with 6 samples.

Results

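The genes described here decide whether a caspase, once triggered at the mitochondrion, can go on to dismantle the cell. Casp9 encodes the initiator caspase-9 and Apaf1 the scaffold on which it is activated. Xiap, Birc2, Birc3 and Birc6 encode inhibitor of apoptosis proteins (IAPs). Diablo encodes Smac/DIABLO, an IAP antagonist kept inside mitochondria, and Xaf1 encodes XIAP-associated factor 1. These 8 genes were chosen by symbol, as the named apoptosome gene, apoptotic caspase, IAPs and IAP antagonists, and all 8 were found among the 17030 genes of the expression table. They were measured in SCC7, a mouse line of squamous cell carcinoma, by RNA sequencing of 6 samples. The control group had 3 samples with no treatment, and the irradiated group had 3 samples of the same line that received radiotherapy, for which the protocol gives 9 Gy. The time label is day 0 throughout, and the time from irradiation to harvest is not known here. The labels do not tell whether samples of the same group were separate cultures, and p-values therefore reflect the variation among these samples alone, possibly technical.

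In the intrinsic pathway of apoptosis, damage such as DNA breaks makes mitochondria release cytochrome c and Smac/DIABLO into the cytosol. Cytochrome c binds APAF1, which assembles into the apoptosome and activates caspase-9, and caspase-9 in turn cleaves the executioner caspases. XIAP binds and blocks caspases directly, and Smac/DIABLO displaces it. The proteins cIAP1 (Birc2) and cIAP2 (Birc3) are ubiquitin ligases that act mainly in signalling from TNF receptors to NF-kB. Most of this control is exerted on proteins, by release, cleavage and degradation, which RNA levels do not show.

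Values are FPKM, fragments scaled by transcript length and library total, and the number of reads behind them is unknown. The libraries of the control group were not alike. On log2(FPKM + 1), the SD over the 8 genes had a median of 0.61 among controls and 0.10 among irradiated libraries (0.30 and 0.08 over all genes tested). Control 3 lay apart from controls 1 and 2 and nearer to the irradiated libraries for most of the genes below, so the fold change of each of the 8 genes, and of the genes named from the pathway lists, is also given without control 3 and against control 3 alone. As a check of the radiotherapy label, the p53 target Mdm2 ranged from 80.36 to 85.69 FPKM in controls and from 264.62 to 290.96 in irradiated cells (log2 fold change 1.74, limma adjusted p = 0.000838), and Cdkn1a from 97.46 to 121.44 and from 206.49 to 218.11 FPKM (0.90, adjusted p = 0.0145, lost in 6 of 15 alternatives). Without control 3 these log2 fold changes were 1.72 and 0.79, and against it alone 1.78 and 1.10. Of 11 squamous epithelial markers, 3 reached a mean of 1 FPKM, namely Krt8, Krt18 and Sfn, while the defining genes Krt5, Krt14, Epcam and Cdh1 stayed under 1 FPKM in every library. Trp63, of the same list, measured 1.10 FPKM in control 3 and 0.05 to 0.21 in the other libraries. The sum over the squamous list was 702 to 1900 FPKM in controls and 487 to 499 in irradiated cells, nearly all of it Krt8 and Krt18. Of 7 fibroblast markers, 6 reached a mean of 1 FPKM, with sums of 145 to 257 FPKM in controls and 199 to 225 in irradiated cells. The leukocyte markers Ptprc and Itgam stayed at or under 0.06 FPKM, and the sum over the leukocyte list was 2.89 to 5.06 FPKM in controls and 7.40 to 9.28 in irradiated cells, mostly Cd68 and Lyz2. Control 3 had the lowest squamous and leukocyte sums of the controls and the highest fibroblast sum, so it stood apart in these markers as well. The part of these differences in the results below was not tested, and in bulk RNA fewer cells of a kind and less RNA per cell cannot be told apart.

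Of the 8 genes, Xaf1 rose in irradiated cells and no other gene was called. It went from the least abundant of the set to the most abundant. Apaf1 and Birc6 lay higher in every irradiated library than in any control but missed the threshold. With Xaf1 that makes 3 of 8 genes with the irradiated group wholly above, as for 31.8% of all genes tested. Casp9, Xiap, Birc2, Birc3 and Diablo had overlapping groups. All 8 genes passed the filter on low values (at least 1 FPKM in at least 3 samples) and were tested on log2(FPKM + 1) with limma among 11103 genes, where a gene was called at a Benjamini-Hochberg adjusted p below 0.05. The share of all tested genes called higher was 9.24% and the share called lower 2.77%, against 1 and 0 of the 8 genes. The count of 1 in 8 is therefore near the background. Xaf1 passed the filter only with the irradiated libraries counted, and it was also called with no filter (limma adjusted p = 0.00222). At an unadjusted p below 0.05, limma gave 4 of the 8 genes higher and 0 lower, where 27.2% of all genes tested were higher and 11.1% lower at that level. The median log2 fold change of the 8 genes was 0.72, against 0.17 over all genes tested.

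**Figure D1:**
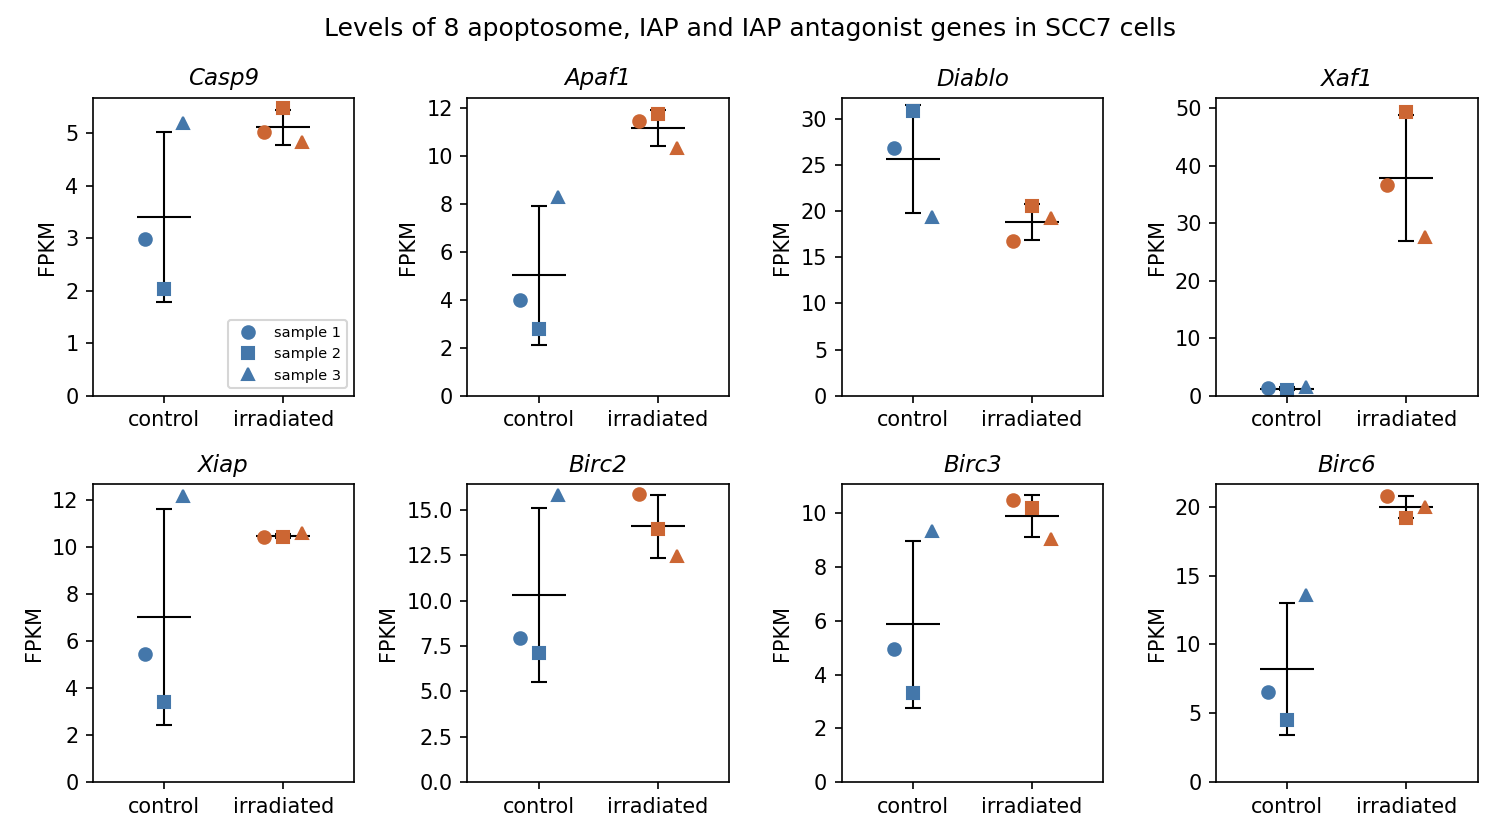
FPKM of the 8 genes in each library (vertical axes start at 0 and differ between panels), with circles, squares and triangles for samples 1, 2 and 3 of a group and bars for the mean ± SD (n = 3 per group). The irradiated libraries lie far above the controls for Xaf1 (27.53 to 49.38 against 0.94 to 1.48 FPKM), and for most other genes control 3 (blue triangle) lies near the irradiated libraries.

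Xaf1 (NCBI gene 327959, GRCm38.p6 chromosome 11, 72301461 to 72313733) encodes a zinc finger protein that binds XIAP and can counter its block of caspases, and it is known as a gene induced by interferon. It measured 1.25, 0.94 and 1.48 FPKM in the controls, samples 1 to 3, and 36.73, 49.38 and 27.53 FPKM in the irradiated samples. Every irradiated library was high and every control low, control 3 included, and the lowest irradiated value was 18.6 times the highest control. The group means were 1.22 ± 0.271 and 37.9 ± 11 FPKM (SD, n = 3 each), a ratio of 31.0. The log2 fold change was 4.10 on log2(FPKM + 1), where the added 1 shrinks changes of weakly expressed genes (SE 0.23, 95% interval 3.55 to 4.64, limma adjusted p = 0.000526), above 99.8% of all genes tested. The call held in each of 15 alternative settings, with log2 fold changes of 3.89 to 4.82 and a highest adjusted p of 0.0126. Against control 3 alone the log2 fold change was 3.93, and without control 3 it was 4.18. No other RefSeq gene overlaps Xaf1.

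Irradiated libraries differed among themselves for Xaf1 more than for the other genes. The coefficient of variation over the irradiated samples was 29.0% for Xaf1 and 0.912% to 12.3% for the other 7 genes. Irradiated sample 2 was the highest and sample 3 the lowest. The genes with the most similar profile followed the same order, but they were picked on these same 6 values, so the choice itself favours a shared order. Distances were Euclidean, between log2(FPKM + 1) values over the 6 samples, each centred on its own mean. Symbols of predicted or clone type were left out. The pattern used for this also drops any symbol that begins with a letter and a digit, so some named genes could not appear. Among the genes kept, the nearest were Ifit3b (0.38), Igtp (0.53) and Oas3 (0.55), where the median distance from Xaf1 was 4.87. Igtp, an interferon-inducible GTPase, measured 0.66, 0.91 and 1.61 FPKM in controls and 42.13, 55.27 and 30.32 in irradiated cells. Oas3, an antiviral oligoadenylate synthetase, measured 0.22, 0.37 and 0.39 FPKM in controls and 28.91, 39.62 and 19.20 in irradiated cells. Ifit3b was at 0, 0 and 0.11 FPKM in controls and 18.45, 29.83 and 13.58 in irradiated cells, and it has a near-identical neighbour, Ifit3, so that reads of the pair could be assigned to either.

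Because Xaf1 was the gene that changed, its promoter is shown beside that of Birc3, an IAP gene that was not called. The sequences are the 250 bases before a transcript start, read 5′ to 3′ on the strand of the gene, from the RefSeq promoter table on GRCm38.p6. Xaf1 lies on the plus strand (chr11:72301379-72301628) and Birc3 on the minus strand (chr9:7873171-7873420). The starts used by that table, at 72301629 for Xaf1 and 7873170 for Birc3, lie inside the outermost RefSeq limits of the genes, so 168 of the bases shown for Xaf1 and 35 of those for Birc3 fall within these limits. Capitals mark matches on either strand to AANNGAAA, the core that interferon regulatory factors bind.
Xaf1: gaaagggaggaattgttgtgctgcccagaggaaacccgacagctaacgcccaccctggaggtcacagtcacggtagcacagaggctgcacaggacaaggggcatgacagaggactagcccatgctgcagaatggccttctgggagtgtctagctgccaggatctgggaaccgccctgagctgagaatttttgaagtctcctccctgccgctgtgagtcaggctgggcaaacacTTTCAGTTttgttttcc
Birc3: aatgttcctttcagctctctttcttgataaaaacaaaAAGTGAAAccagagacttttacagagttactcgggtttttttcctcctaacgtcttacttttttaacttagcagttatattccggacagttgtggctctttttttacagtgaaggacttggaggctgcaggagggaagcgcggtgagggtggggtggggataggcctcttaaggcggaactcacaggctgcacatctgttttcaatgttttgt
The match in Xaf1 lies at -17 to -10, counted from the start, and that in Birc3 at -213 to -206. A further match in Xaf1 lies at 12 to 19, in the stretch gcaaagAAACGAAActccac (chr11:72301634-72301653).

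Motifs were searched in windows of 300 bases, 250 before and 50 after the start, of which the 8 genes have 11 (3 for Xiap, 2 for Birc2 and 1 for each other gene). AANNGAAA occurs in 23.9% of all 32851 RefSeq windows, and at 2 or more positions in 5.34%. Among the 8 genes it was found in Xaf1, in Birc3 and in the second window of Birc2. GAAANNGAA, letters from the core of the interferon-stimulated response element, occurs in 8.56% of windows. Of the 11 windows it is in 1 of Xiap and not in that of Xaf1, while the windows of Ifit3b, Igtp and Oas3 each hold it. The NF-kB-type letters GGNNTTTCC (5.82% of windows) are in none of the 11. AANNGAAA and GAAANNGAA can overlap. A match is a description of letters and not a site, no match says only that these letters are not in the window, and the motifs were chosen after the sequences had been seen.

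The apoptosome genes Apaf1 and Casp9 were both at low levels. Apaf1 (NCBI gene 11783, chromosome 10, 90989311 to 91082743) measured 4.01, 2.78 and 8.30 FPKM in the controls and 11.47, 11.77 and 10.34 FPKM in the irradiated samples. All irradiated libraries lay above all controls, with control 3 well above controls 1 and 2. The log2 fold change was 1.12 (SE 0.32, 95% interval 0.36 to 1.88, limma adjusted p = 0.0621), and the ratio of the means was 2.23 with all controls and 1.35 against control 3. Apaf1 overlaps Ikbip, a gene next to it that is also in the table, so reads in the overlap could be given to either.

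Casp9 (NCBI gene 12371, chromosome 4, 141793612 to 141815978) measured 2.98, 2.03 and 5.20 FPKM in controls and 5.03, 5.49 and 4.84 FPKM in irradiated cells. Control 3 lay within the irradiated range and the other controls below it. The log2 fold change was 0.54 (SE 0.26, 95% interval -0.09 to 1.16, limma adjusted p = 0.173), and it was -0.02 against control 3 alone. The interval does not show that Casp9 stayed the same. Within each library, Casp9 stood lower relative to Apaf1 after irradiation. The log2 ratio of Casp9 to Apaf1 was -0.33, -0.32 and -0.58 in controls and -1.05, -0.98 and -0.96 in irradiated cells, a difference of -0.58 in which, apart from the added 1, the scaling of each library cancels. The groups did not overlap, and the difference against control 3 alone was -0.41. The two-sided exact permutation p was 0.10, the smallest that 3 samples against 3 can give (adjusted p = 0.133 over the 4 ratios examined). Apaf1 has the longer transcript of the pair, 6577 bases against 3897.

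Diablo (NCBI gene 66593, chromosome 5, 123511330 to 123524164), the antagonist that frees caspases from IAPs, was the most abundant of the 8 genes in controls. It measured 26.81, 30.88 and 19.35 FPKM in controls and 16.74, 20.55 and 19.30 FPKM in irradiated cells. Controls 1 and 2 were high, and control 3 lay among the irradiated libraries. The log2 fold change was -0.41 (SE 0.19, 95% interval -0.87 to 0.06, limma adjusted p = 0.166), the negative one of the 8, and -0.04 against control 3 alone. The Diablo gene overlaps B3gnt4, which is also in the table.

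Among the inhibitors, Xiap (NCBI gene 11798, chromosome X, 42059613 to 42109664) encodes the member that blocks caspases most directly. It measured 5.43, 3.4 and 12.17 FPKM in controls and 10.40, 10.41 and 10.57 FPKM in irradiated cells. The irradiated libraries were nearly equal (SD 0.0954 FPKM), while control 3 was 3.58 times control 2 and above every irradiated library. The log2 fold change was 0.67 (SE 0.38, 95% interval -0.22 to 1.57, limma adjusted p = 0.219), and its sign turned against control 3 alone (-0.20).

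Birc2 and Birc3 lie side by side on chromosome 9, at 7818226 to 7837131 (NCBI gene 11797) and 7847468 to 7873205 (NCBI gene 11796), and encode the related ligases cIAP1 and cIAP2. Birc2 measured 7.96, 7.10 and 15.84 FPKM in controls and 15.89, 13.96 and 12.44 FPKM in irradiated cells. Birc3 measured 4.94, 3.32 and 9.35 FPKM in controls and 10.49, 10.22 and 9.03 FPKM in irradiated cells. For both genes control 3 lay inside the irradiated range and controls 1 and 2 below it. The log2 fold changes were 0.49 for Birc2 (SE 0.29, 95% interval -0.19 to 1.18, limma adjusted p = 0.236) and 0.76 for Birc3 (SE 0.31, 95% interval 0.02 to 1.5, limma adjusted p = 0.123). Against control 3 alone they were -0.16 and 0.07. Birc2 stayed the more abundant of the pair in all 6 libraries. The log2 ratio of Birc3 to Birc2 was -0.59, -0.91 and -0.70 in controls and -0.56, -0.42 and -0.42 in irradiated cells, a difference of 0.27 (two-sided exact permutation p = 0.10, adjusted p = 0.133). The groups were apart, but by little, since irradiated sample 1 and control 1 differed by less than the SD of the controls, 0.16. How the authors assigned reads that match both genes is not given in the sources used here.

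Birc6 (NCBI gene 12211, chromosome 17, 74528254 to 74703356) encodes BRUCE, a very large protein that joins a BIR domain with a ubiquitin-conjugating domain. It measured 6.54, 4.48 and 13.58 FPKM in controls and 20.77, 19.19 and 19.99 FPKM in irradiated cells. All irradiated libraries lay above all controls, and the lowest of them was 1.41 times control 3. The log2 fold change was 1.31 (SE 0.34, 95% interval 0.50 to 2.12, limma adjusted p = 0.0517), just outside the threshold and above 96.9% of all genes tested. It was 0.52 against control 3 alone. Birc6 was called after quantile normalization (1.04, limma adjusted p = 0.0462) and by limma without trend and robust options (1.31, adjusted p = 0.0481) (highest adjusted p in any alternative, 0.208).

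**Figure D2:**
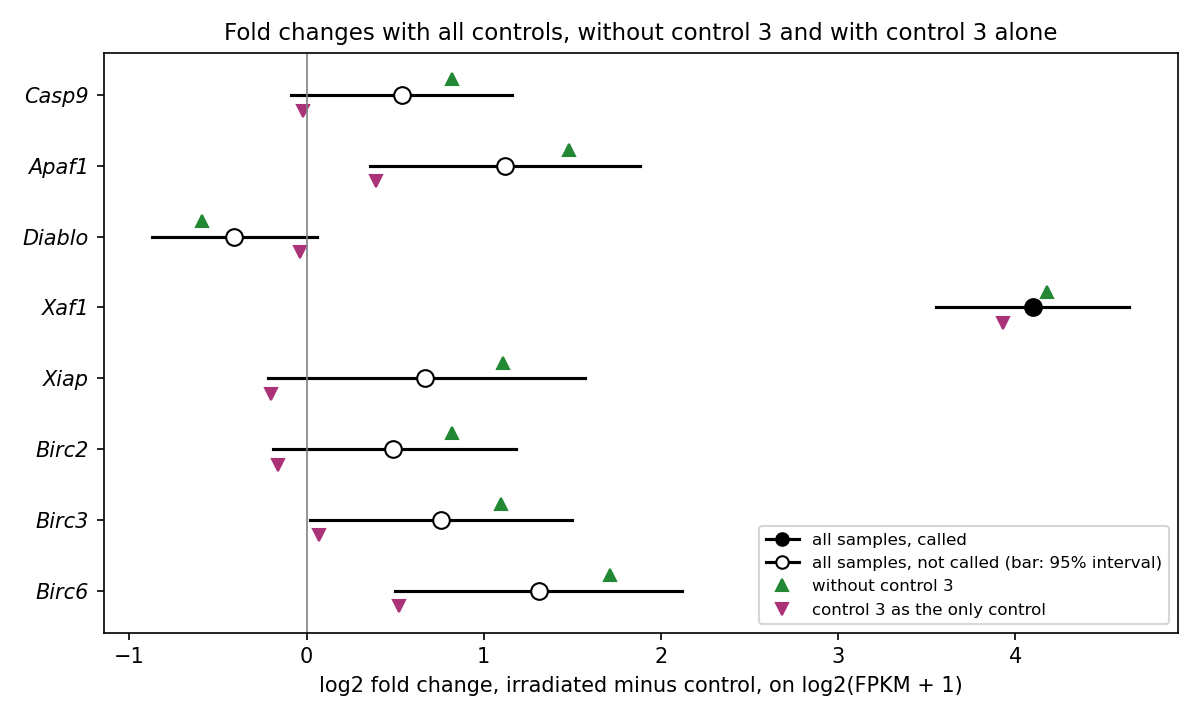
Log2 fold change of each gene, irradiated minus control on log2(FPKM + 1), with its 95% interval (circles, filled where called), beside the value without control 3 (upward triangles) and with control 3 as the only control (downward triangles). Xaf1 keeps 3.93 to 4.18, while Casp9, Xiap and Birc2 lie at -0.02, -0.20 and -0.16 against control 3 alone.

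The fold changes of the 7 genes other than Xaf1 depended on control 3. Without it, the log2 fold changes were 0.82 for Casp9, 1.48 for Apaf1, -0.59 for Diablo, 1.11 for Xiap, 0.82 for Birc2, 1.10 for Birc3 and 1.71 for Birc6. They moved with other choices as well, as leaving out control 2 gave 0.32 for Xiap and 0.30 for Casp9. Without control 3, limma called 7 of the 8 genes higher and Diablo lower, but that setting called 45.8% of all 11053 genes tested higher and 23.3% lower, 69.1% in all. With control 3 as the only control, Xaf1, Apaf1 and Birc6 were called higher and none lower, where 22.8% of 11003 genes were called higher and 14.4% lower. In that comparison the lone control is assumed to vary like the irradiated libraries, which varied little, so its p-values are a description. Apaf1 had a log2 fold change of 0.39 there (limma adjusted p = 0.0215).

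Fold changes also moved with transcript length across the table. Over all tested genes of known length, the median log2 fold change was -0.33 for the 1591 genes with transcripts under 1500 bases, 0.05 from 1500 to under 3000, 0.28 from 3000 to under 6000 and 0.50 for the 1433 genes of 6000 bases or more. Against control 3 alone the same medians were 0.00, 0.05, 0.07 and 0.16, against control 1 -0.45 to 0.63 and against control 2 -0.56 to 0.74. Birc6, Xiap and Apaf1 have the longest transcripts of the set, at 15768, 6834 and 6577 bases, and Diablo and Xaf1 the shortest, at 2588 and 2597. After a correction of each library for its trend with transcript length and GC content, the log2 fold change was 0.69 for Birc6 (limma adjusted p = 0.0699), 0.65 for Apaf1 (0.0534), 0.06 for Xiap (0.834), -0.63 for Diablo (0.134) and 3.90 for Xaf1 (0.000391). RNA quality was not measured, and its part in this trend was not tested.

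**Figure D3:**
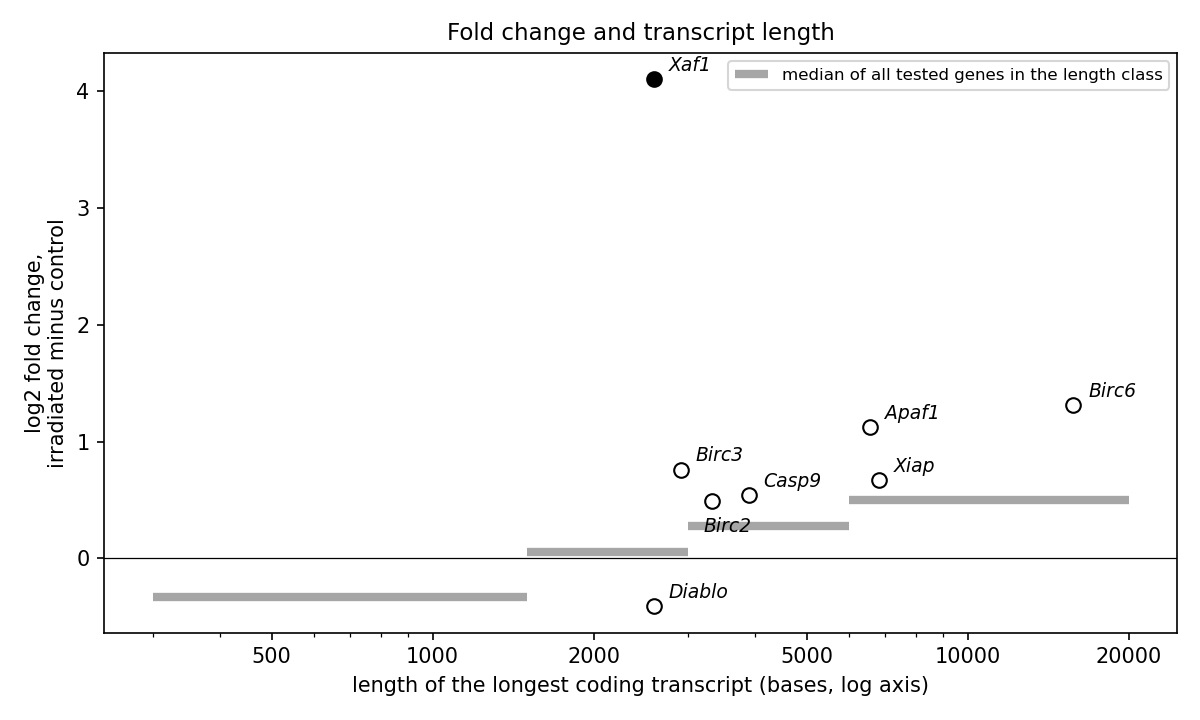
Log2 fold change of the 8 genes against the length of their longest coding transcript (log axis), with grey bars for the median of all tested genes in 4 length classes. The grey medians go from -0.33 in the shortest class to 0.50 in the longest, and Xaf1 at 4.10 lies far from that of its class, 0.05.

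The order of the genes by FPKM changed at both ends. FPKM is scaled per length, but fold changes still moved with transcript length, so the order of genes of unlike length is approximate. In controls the order was Diablo (mean 25.7 FPKM), Birc2 (10.3), Birc6 (8.20), Xiap (7.0), Birc3 (5.87), Apaf1 (5.03), Casp9 (3.4) and Xaf1 (1.22). Only Diablo and Xaf1 had ranges apart from their neighbours in that order, and each of the 6 genes between them overlapped its neighbours among those 6. In irradiated cells the order was Xaf1 (37.9 FPKM), Birc6 (20.0), Diablo (18.9), Birc2 (14.1), Apaf1 (11.2), Xiap (10.5), Birc3 (9.91) and Casp9 (5.12). There the ranges of Birc6 and Diablo overlapped, as did those of Apaf1 with Xiap and of Xiap with Birc3. Casp9 was the lowest of the 8 in every irradiated library.

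Ratios within a library place the antagonists against their target. The log2 ratio of Xaf1 to Xiap was -1.51, -1.18 and -2.41 in controls and 1.73, 2.14 and 1.30 in irradiated cells. Xiap was the more abundant transcript in every control and Xaf1 in every irradiated library, a difference of 3.43 (two-sided exact permutation p = 0.10, adjusted p = 0.133). The log2 ratio of Diablo to Xiap was 2.11, 2.86 and 0.63 in controls and 0.64, 0.92 and 0.81 in irradiated cells. Control 3 lay just below the irradiated libraries and controls 1 and 2 far above. The difference of -1.08 did not pass (two-sided exact permutation p = 0.40, adjusted p = 0.40) and turned to 0.16 with control 3 as the only control.

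**Figure D4:**
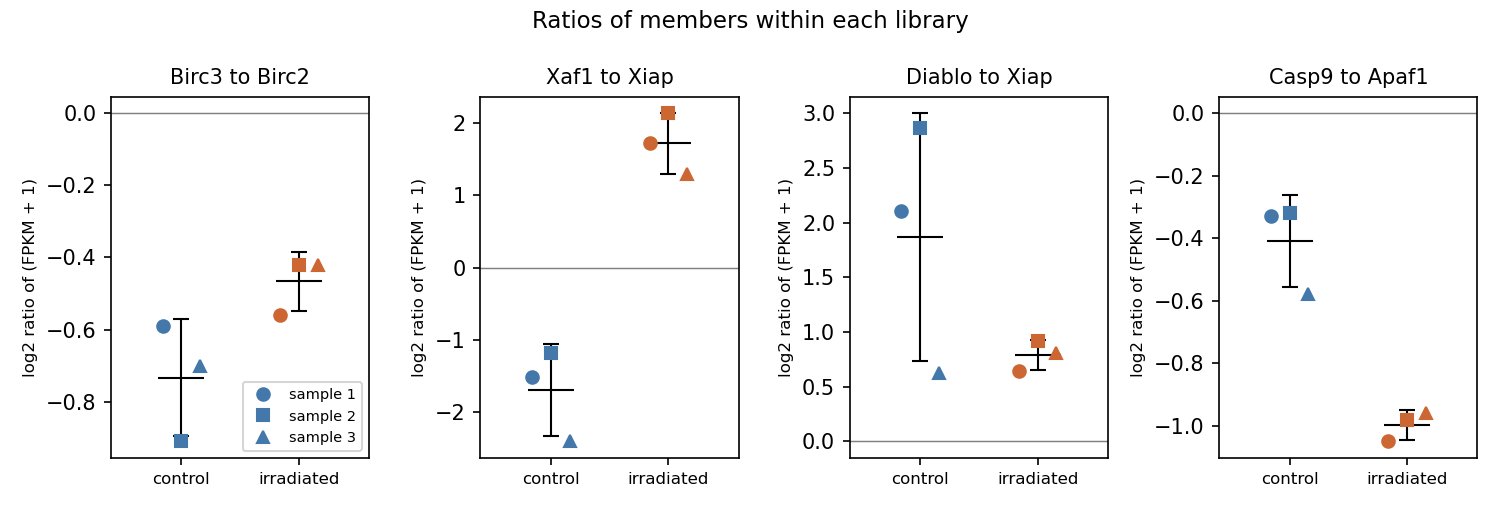
Log2 ratios of (FPKM + 1) between pairs of genes in each library (symbols as in the plot of levels, bars for the mean ± SD, n = 3 per group). The ratio of Xaf1 to Xiap is below 0 in all controls and above 0 in all irradiated libraries, and the ratio of Diablo to Xiap in control 3 (0.63) lies beside the irradiated values.

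The other genes of the pathway were taken in 5 lists. Of 43 genes listed, 39 were tested, of which 4 were called higher and 1 lower, close to the 9.24% and 2.77% of all genes tested. Naip5 and Naip6, among those called higher, passed the filter on low values only through the irradiated libraries. At an unadjusted p below 0.05, limma gave 18 of the 39, where 38.3% of all genes were at that level. The median log2 fold change over these lists was 0.33, against 0.17 over all genes tested. Without control 1, limma called 0 of the 39, with 12 at an unadjusted p below 0.05, where 1.63% of all genes were called and 23.4% were at that level. Without an irradiated library it called 0, with 7 or 8 at that level, where 0.516%, 0.599% and 0.911% of all genes were called without irradiated samples 1, 2 and 3, and 21.0%, 21.4% and 23.2% were at that level. Without control 2 it called 1, where 4.96% of all genes were called, and without control 3 it called 30, where 69.1% were. With control 3 as the only control it called 17, where 37.2% were.

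None of the 5 other apoptotic caspases was called by limma, and 3 had an unadjusted p below 0.05, a level reached by 38.3% of all genes. All 5 were called without control 3 and 2 with control 3 as the only control, the settings that called 69.1% and 37.2% of all genes. Casp8, the initiator at death receptors, measured 25.84, 21.38 and 22.51 FPKM in controls and 30.68, 30.73 and 29.15 in irradiated cells, with the groups apart (log2 fold change 0.37, adjusted p = 0.0847, 0.35 without control 3 and 0.41 against it alone). The groups of Casp6, an executioner, were apart too, at 29.29, 18.40 and 32.93 FPKM in controls and 44.65, 40.41 and 38.69 in irradiated cells (0.64, adjusted p = 0.0903, 0.80 without control 3 and 0.31 against it alone). The irradiated group lay wholly above the controls for 3 of the 5 caspases, as for 31.8% of all genes tested. Over 15 alternatives the log2 fold change of Casp8 ran from 0.15, after median-of-ratios scaling, to 0.44, without control 1. The median of the 5 caspases was 0.37.

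Of 9 mitochondrial factors and further IAP antagonists, 7 were tested and 1 was called lower, where 2.77% of all genes tested were. Endog, the mitochondrial endonuclease G, fell after irradiation, to 2.87, 2.75 and 4.12 FPKM against 7.72, 8.61 and 5.50 FPKM in controls (log2 fold change -0.96, limma adjusted p = 0.0371). Every irradiated library lay below every control, as for 13.7% of all genes tested. Endog was also lower without control 3 (-1.12) and against control 3 alone (-0.63). Its transcript is short, at 1063 bases. Among tested genes with transcripts under 1500 bases, 8.3% were called lower and the median log2 fold change was -0.33. With libraries corrected for transcript length and GC content, Endog shrank to -0.62 and stayed called (limma adjusted p = 0.0347). Its call was lost in 6 of 15 alternatives: the fit blocked by sample number (adjusted p = 0.0912), those that left out control 1 or 2 (0.151 and 0.0804) and those that left out an irradiated library (0.20, 0.201 and 0.121). Bax, the pore-forming protein of the outer membrane, was named after its values were seen. It measured 226.42 to 402.85 FPKM in controls and 239.52 to 242.32 in irradiated cells and was not called (-0.38, adjusted p = 0.238). Bax was called without control 3 (-0.61, limma adjusted p = 0.00119), and its sign turned against control 3 alone (0.09). The list median was -0.13.

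None of the 6 genes listed as caspase substrates or DNA fragmentation factors was called by limma, and 3 had an unadjusted p below 0.05, where 38.3% of all genes did. Acin1, which encodes acinus, measured 64.36 to 91.70 FPKM in controls and 52.63 to 56.47 in irradiated cells (log2 fold change -0.52, limma adjusted p = 0.0699, -0.65 without control 3 and -0.24 against it alone). Dffa, the inhibitor of the caspase-activated DNase, measured 2.95 to 3.58 FPKM in controls and 4.22 to 5.47 in irradiated cells (0.42, adjusted p = 0.0915, 0.46 without control 3 and 0.35 against it alone). Over 14 alternatives the log2 fold change of Dffa ran from 0.01, after quantile normalization, to 0.51, with a pseudocount of 0.1. The list median was 0.26.

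Among the other genes with BIR domains, 4 of 6 were tested and 2 were called higher, both from the Naip family of inflammasome receptors. Over all genes tested, 9.24% were called higher. Naip5 and Naip6 passed the filter on low values only through the irradiated libraries, where they were high. The count of 2 therefore cannot be weighed against that share. Naip5 measured 0.62, 0.50 and 1.62 FPKM in controls and 2.93, 2.75 and 2.71 in irradiated cells (log2 fold change 1.03, limma adjusted p = 0.0372). Naip6 measured 0.42, 0.16 and 1.07 FPKM in controls and 1.68, 1.77 and 1.87 in irradiated cells (0.88, adjusted p = 0.0477). Without control 3 the log2 fold changes of Naip5 and Naip6 were 1.28 and 1.11, and against it alone 0.53 and 0.42. These genes are near-identical copies at low levels, so their separate values are uncertain. Both calls were lost with a pseudocount of 0.1 (adjusted p = 0.0518 and 0.0718), after quantile normalization (0.0673 and 0.115), in the fit blocked by sample number (0.0771 and 0.0831) and on leaving out any sample but control 3 (adjusted p up to 0.196 and 0.208). The Naip6 call was also lost with no filter (0.0621), after median-of-ratios scaling (0.0583) and after the length and GC correction (0.0557). Birc5, which encodes survivin, an IAP family protein of mitosis, was named after its values were seen. It measured 336.76, 360.56 and 180.92 FPKM in controls and 169.02, 155.40 and 176.15 in irradiated cells (-0.75, adjusted p = 0.099). Birc5 was called without control 3 (-1.06, limma adjusted p = 8.32e-05) and not against control 3 alone (-0.12, adjusted p = 0.349).

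In the TNF receptor complex and the NF-kB pathway that cIAP1 and cIAP2 serve, 2 of 17 genes were called, both higher. Over all genes tested, 9.24% were called higher. Rnf31, which encodes HOIP, the catalytic subunit of the linear ubiquitin ligase, rose from 5.52, 5.25 and 9.13 FPKM to 17.15, 19.59 and 13.35 (log2 fold change 1.23, limma adjusted p = 0.0278). Its partners Rbck1 and Sharpin, named after their values were seen, had log2 fold changes of -0.39 and -0.38 and were not called. For Rbck1 every irradiated library lay below every control, as for 13.7% of all genes tested. Without control 3, limma called Rbck1 and Sharpin lower (-0.48 and -0.75, adjusted p = 0.00354 and 0.00381), where 23.3% of all genes were. Against control 3 alone the log2 fold changes were -0.21 for Rbck1 and 0.36 for Sharpin, whose sign turned. Nfkbia, the NF-kB inhibitor and target, rose from 67.38, 89.79 and 54.21 FPKM to 121.91, 121.43 and 117.12 (0.79, adjusted p = 0.0469). The groups were apart, with the irradiated group higher as for 31.8% of all genes tested, for Rnf31 and Nfkbia. Without control 3 their log2 fold changes were 1.46 and 0.62, and against it alone 0.79 and 1.13. The Rnf31 call was lost in the fit blocked by sample number (adjusted p = 0.0782) and on leaving out any sample but control 3 (0.132, 0.0645, 0.171, 0.186 and 0.108). The Nfkbia call was lost in 9 of 15 alternatives, among them median-of-ratios scaling (0.57, adjusted p = 0.136). The list median was 0.33.

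**Figure D5:**
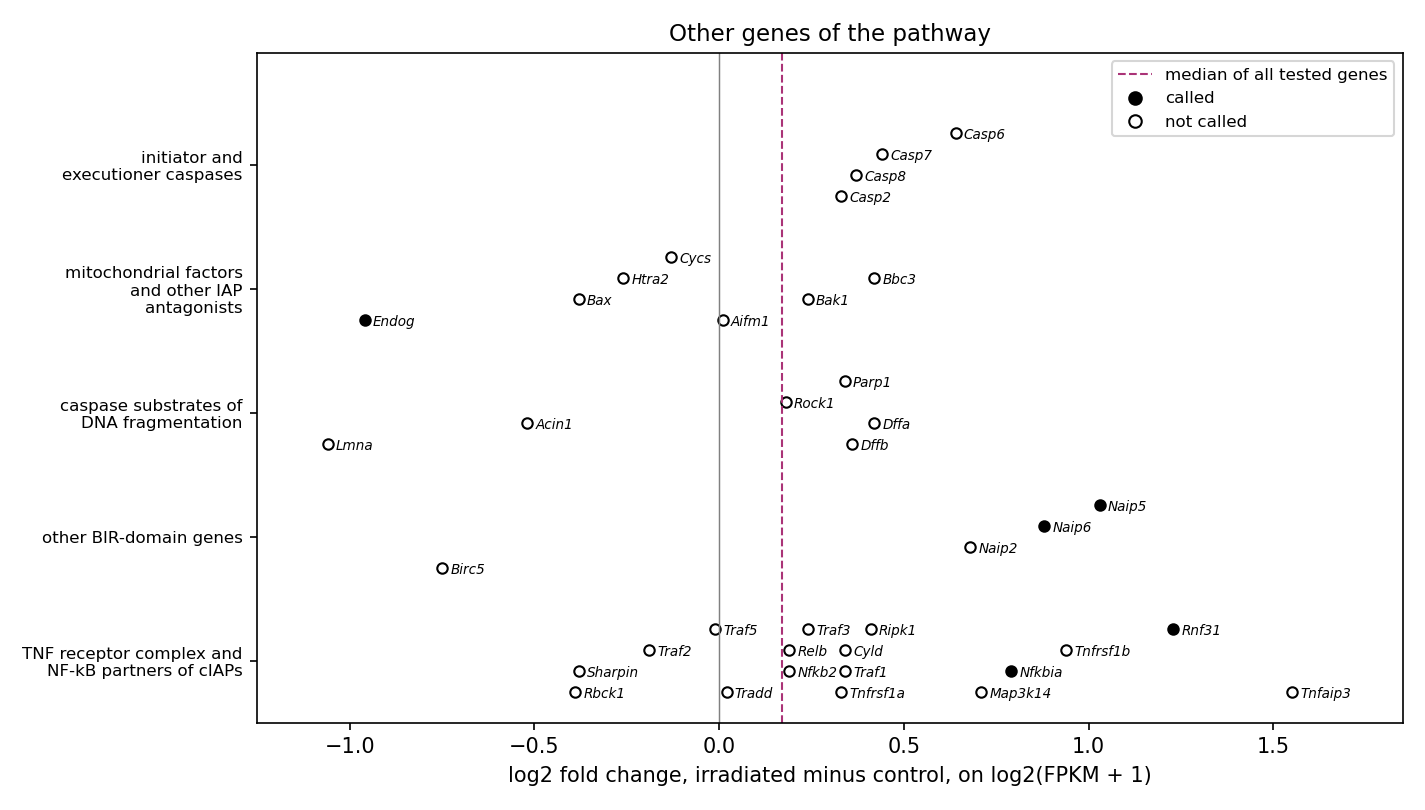
Log2 fold change, irradiated minus control on log2(FPKM + 1), of the tested genes in 5 lists (one row of points per list, filled where called, 1 caspase gene not drawn), with the median of all tested genes as a dashed line at 0.17. Filled points mark Endog (-0.96) on the left and Nfkbia (0.79), Naip6 (0.88), Naip5 (1.03) and Rnf31 (1.23) on the right.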

How the data were processed

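RNA was sequenced from 6 SCC7 samples after removal of ribosomal RNA, per the labels' protocols. The authors deposited FPKM per gene, per the file headers, with 2 decimals, and all 6 columns were used. HISAT and the build GRCm38.p6 are named in the submitters' processing notes. Which counting tool and annotation were used is not given in the sources used here. FPKM holds no read number, so depth is unknown and no count model was used. Coordinates and promoters come from RefSeq on GRCm38.p6 (16976 genes matched by NCBI gene identifier), transcript lengths from GENCODE M21, same build (16424 genes).

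The test was limma 3.58.1 (R 4.3.3) on log2(FPKM + 1) for genes reaching 1 FPKM in 3 or more samples, with 2 groups, trend and robust options, Benjamini-Hochberg adjustment over 11103 genes. The fit assumes equal variance in both groups, so p-values are approximate. On simulated data, 48% of 100 genes changed 2-fold and 81% of 100 changed 4-fold were recovered. Of the 10942 genes tested there, 9 unchanged ones were called. The simulation gave both groups the same SD for a gene, with noise independent between genes and no shift of control 3. The real data differ in each of these, so the simulated shares do not give the error rate of the calls here. Ratios within a library used exact permutation tests (scipy 1.17.1). The 8 genes and the lists were chosen with earlier results of these data known. Named genes are the 8, in each list up to 4 called genes or else the 2 of smallest p, the 3 profiles nearest to each called gene, and Mdm2 and Cdkn1a. Profiles were ranked after symbols of predicted or clone type, and any that begin with a letter and a digit, were left out. Other named genes are marked where they appear. A gene that counts in its list is not reported here by itself. Alternatives were another pseudocount, filter, scaling or variance model, the sample number as a block, and leaving out each sample. After the data had been seen, a length and GC correction (splines, 4 degrees of freedom) and the setting with a single control, control 3, were added.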

Additional observations from a re-analysis of the deposited data

How the results depend on the processing

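Xaf1 was called in all 15 alternatives. Of the 8 genes, those called higher numbered 1 with all samples, 2 after quantile normalization and 2 without trend and robust options (Birc6 added), 3 with control 3 as the only control, and 1 to 7 on leaving out each sample in turn. Those called lower numbered 0, and 0 to 1 on leaving out each sample. Against control 3 alone the log2 fold changes of Casp9, Xiap and Birc2 reversed to -0.02, -0.20 and -0.16, and the ratio of Diablo to Xiap to 0.16. Over all genes, 1334 calls became 727 with the filter at 5 FPKM (fewer genes tested), 4093 with control 3 as the only control, and 56 to 7638 on leaving out each sample. The split of 1026 higher and 308 lower became 621 and 578 after median-of-ratios scaling, 663 and 564 after quantile normalization and 833 and 880 after the length and GC correction, with all-gene medians of -0.03, -0.01 and -0.03 in place of 0.17. The 5 calls in the pathway lists became 2 with a pseudocount of 0.1, 2 with the filter at 5 FPKM, 3 after median-of-ratios scaling, 3 after quantile normalization, 17 with control 3 as the only control, and 0 to 30 on leaving out each sample. The cause of these shifts was not tested. The sample numbers did not pair the samples: the deviations of same-numbered samples correlated at -0.115, 0.02 and -0.159 across genes, and 0 of 6 samples correlated best with their own number. With the sample number as a replicate block, 300 of 11103 genes tested were called in all. Among them were 1 of the 8 genes (Xaf1, limma adjusted p = 0.00369) and 0 in the lists.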
